A study of Arabidopsis thaliana with 15 samples.

Results

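The loci described here lie around the 5 centromeres of Arabidopsis thaliana. They were chosen by position in the deposited tables: starts between 14 and 16 Mb on chromosome 1, 2.6 and 4.6 Mb on chromosome 2, 12.6 and 14.6 Mb on chromosome 3, 2.95 and 4.95 Mb on chromosome 4, and 10.7 and 12.7 Mb on chromosome 5 (TAIR10). The copy of mitochondrial DNA inserted on chromosome 2 between 3.23 and 3.52 Mb, with 131 loci, and 4 loci beside rRNA genes on chromosome 3 were left out. There were 1937 such loci among the 33602 of the tables, 283 on chromosome 1, 384 on chromosome 2, 411 on chromosome 3, 431 on chromosome 4 and 428 on chromosome 5. By the RefSeq annotation, 1633 of them (84.3%) were pseudogenes or transposon genes, which share a single class there, 257 (13.3%) were protein-coding, 14 were non-coding RNAs and 33 had no entry. Of the 31251 nuclear loci outside the windows, 3158 (10.1%) were pseudogenes or transposon genes and 26390 (84.4%) were protein-coding. The label of a region rich in transposons and pseudogenes was thus borne out by the annotation, although the text of only 14 of the loci names a transposon.

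Pericentromeric DNA of Arabidopsis is packed as heterochromatin. DNA methylation and histone H3 lysine 9 methylation keep its transposons mostly silent, and the remodeller DDM1 and the methyltransferases MET1, CMT2 and CMT3 maintain these marks. The centromeres themselves are built of long tandem arrays of a short satellite repeat. Genes that lie between the transposons can be expressed in the ordinary way. An RNA that is made but not exported, or that is quickly broken down, is a larger part of the RNA of nuclei than of whole cells.

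Polyadenylated RNA was sequenced from 2-week-old seedlings of the Col-0 wild type and of homozygous eds4 plants grown together at 22 °C in continuous white light (50 µmol per square metre per second) with no treatment. EDS4 is the gene of NUP205, which belongs to the scaffold of the nuclear pore. The profiling experiment had whole seedlings extracted with a column kit, 4 libraries of the wild type and 3 of eds4. The distribution experiment had 2 libraries per genotype of whole-seedling ("total") RNA and 2 per genotype of RNA from nuclei purified by fluorescence-activated sorting, all extracted with phenol. The labels do not say that replicates were separate cultures, and the p-values below therefore reflect spread between libraries that may be technical.

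Library totals were 37277300 to 51059295 counts in profiling seedlings, 22805360 to 31745372 in total RNA and 12393243 to 21786898 in nuclei, so nuclei were the shallowest. Both nuclei libraries numbered 2 stood apart. That of the wild type had 11.2% of its counts on nuclear rRNA genes and 4.21% on chloroplast genes, against 1.303 to 2.79% and 0.259 to 1.33% in the other nuclei libraries, and that of eds4 detected 20779 loci of all kinds against 22801 to 23608 in the others. The numbers detected and the genotype differences in nuclei are also given without them. At the EDS4 locus (AT5G51200) eds4 was lower in profiling seedlings (31.9, 31.9 and 42.2 CPM, read counts relative to scaled library size, against 63.8 to 84.3) and in total RNA (41.3 and 29.0 against 95.7 and 81.1), but not in nuclei (59.5 and 62.5 against 48.5 and 65.5), so this locus gives no check of the labels of the nuclei. The 22 markers of seedling cell types and pollen, dominated by the photosynthesis genes RBCS1A and LHCB1.3, summed to 53090 to 61901 CPM in total RNA and 6683 to 11796 CPM in nuclei. Not every marker was lower in nuclei, and the endodermis gene CASP1 was higher there in both genotypes. In bulk RNA, fewer cells of a type, less RNA per cell and, for nuclei, the absence of cytoplasmic RNA cannot be told apart.

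Satellite repeats gave the 2 largest fitted rises from total RNA to nuclei among the called loci of the wild type and the 3 largest of eds4. Of the 1505 loci of at least 800 bases, 4 consisted of a tandem array with a period of 178 bases, found by matching each locus to itself at shifts of 100 to 400 bases (at least 60% of bases equal; the next locus reached 54.2%). These were AT2G08986 (chr2:3618058-3626460, 47.2 units), AT2G07981 (chr2:3614986-3617716, 15.3 units), AT1G40104 (chr1:15081952-15085893, 22.2 units) and AT4G05612 (chr4:2959094-2963744, 26.1 units), all on the plus strand and annotated as protein-coding genes for uncharacterized proteins. A unit of this length is known as the centromere repeat of Arabidopsis. A unit of each is shown because 3 of the arrays were nearly absent from whole-seedling libraries and well covered in most nuclei libraries, and because the units are so alike that a short read can match several of them. Letters are from the RefSeq TAIR10.1 assembly, whose nuclear chromosomes carry the coordinates of the files, 5′ to 3′ on the plus strand, from chr2:3618058-3618235, chr2:3614986-3615163, chr1:15083546-15083723 and chr4:2962111-2962288. For AT2G08986 the first 178 bases are shown, and for each other array the 178 bases most like them. Units were compared position by position without gaps. Capitals mark bases that differ from the AT2G08986 unit, and a difference in length can show as a run of capitals.
AT2G08986: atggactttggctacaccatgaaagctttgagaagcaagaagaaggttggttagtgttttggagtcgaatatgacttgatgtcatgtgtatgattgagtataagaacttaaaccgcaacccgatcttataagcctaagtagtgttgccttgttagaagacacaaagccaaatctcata
AT2G07981: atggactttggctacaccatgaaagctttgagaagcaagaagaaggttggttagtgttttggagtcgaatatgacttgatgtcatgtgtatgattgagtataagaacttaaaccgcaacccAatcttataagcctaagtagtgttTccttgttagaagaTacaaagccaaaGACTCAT
AT1G40104: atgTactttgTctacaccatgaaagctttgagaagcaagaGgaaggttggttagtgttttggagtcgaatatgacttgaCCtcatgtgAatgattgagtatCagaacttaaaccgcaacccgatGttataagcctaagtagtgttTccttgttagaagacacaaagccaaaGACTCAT
AT4G05612: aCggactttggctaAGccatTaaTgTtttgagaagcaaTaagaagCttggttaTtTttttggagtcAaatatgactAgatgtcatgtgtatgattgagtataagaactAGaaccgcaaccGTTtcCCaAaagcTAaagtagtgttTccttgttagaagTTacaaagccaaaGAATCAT
The unit shown of AT2G07981 differed from that of AT2G08986 at 10 positions (94.4% identity), that of AT1G40104 at 16 (91.0%) and that of AT4G05612 at 32 (82.0%). These are the closest matches of each array, not averages over its units. Within an array, 70.6% (AT1G40104) to 81.9% (AT4G05612) of bases equalled the base 178 positions on, also without gaps. Across the genome, 383158 bases matched the AT2G08986 unit at 80% identity or more, and 342883 of them (89.5%) lay inside the 5 windows. The share inside was 99.5% on chromosome 1 and 65.7% on chromosome 4. The tables cover little of this satellite: 24546 matching bases lay inside listed loci, 17 in number, of which 16 were pericentromeric members. A count at an array is therefore a count of repeat reads placed there, and reads from unlisted copies elsewhere may be among them.

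AT2G08986 had 4142 and 3708 counts in the 2 wild type nuclei libraries and 4 and 0 in wild type total RNA. In eds4 it had 940 and 47 in nuclei and 0 and 0 in total RNA. Profiling seedlings, at higher depth, had 1, 1, 0 and 0 counts in the wild type and 0, 1 and 0 in eds4. Nuclei and total RNA did not overlap in either genotype, and the eds4 nuclei lay below the wild type nuclei. As CPM, the wild type nuclei held 200 and 245 and the eds4 nuclei 38.1 and 3.37. The edgeR quasi-likelihood test gave a log2 change from total RNA to nuclei of 11.56 ± 1.39 (SE) in the wild type (adjusted p = 0.000639) and 11.91 ± 1.87 in eds4 (adjusted p = 0.00189). Such fitted values depend on a prior count where total RNA is near 0. The ratio of rates from summed counts was 3205 in the wild type, with a counting interval of 1251 to 11764, and eds4 nuclei were at least 429-fold higher, taking 3 counts over the 2 libraries as the floor. These intervals and floors cover counting error only, since reads without molecular identifiers are not independent molecules.

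The other arrays were also seen almost only in nuclei. AT2G07981 had 1195 and 1021 counts in wild type nuclei, 240 and 13 in eds4 nuclei, 1 and 0 in wild type total RNA and none in eds4 total RNA. Its log2 change was 11.44 ± 1.34 in the wild type (adjusted p = 0.000581) and 9.97 ± 1.70 in eds4 (adjusted p = 0.00276). AT1G40104, on another chromosome, had 1630 and 1435 counts in wild type nuclei, 525 and 27 in eds4 nuclei, 7 and 2 in wild type total RNA and none in eds4 total RNA. Its log2 change was 9.10 ± 1.17 (adjusted p = 0.000861) and 11.08 ± 1.78 (adjusted p = 0.00209), and the ratio of rates in the wild type was 556 (293 to 1217, counting error only). It was at 0 in all 7 profiling libraries. AT4G05612, the most diverged array and named after its values were seen, had 6 and 23 counts in wild type nuclei, 3 and 0 in eds4 nuclei and 0 in the 11 whole-seedling libraries. The nuclei of the wild type were at least 15.8-fold above total RNA there.

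Summed over AT2G08986, AT2G07981 and AT1G40104, the arrays made up 337 and 408 CPM of wild type nuclei, 69.0 and 6.23 CPM of eds4 nuclei, 0.394 and 0.0715 CPM of wild type total RNA and 0 of eds4 total RNA. The genotypes did not overlap in nuclei, and the 2 eds4 libraries differed widely from each other. The log2 change from wild type to eds4 nuclei was -3.41 ± 0.86 for AT2G08986 (adjusted p = 0.141), -3.52 ± 0.79 for AT2G07981 (adjusted p = 0.107) and -2.88 ± 0.81 for AT1G40104 (adjusted p = 0.167), so none passed the threshold of 0.05. Without eds4 nuclei replicate 1 all 3 passed (-6.05, -6.06 and -5.49, each with an adjusted p = 0.0077), a fit in which the lone eds4 nuclei library is assumed to vary like the other groups. Without eds4 nuclei replicate 2 the changes were -2.54, -2.68 and -2.03 and none passed (adjusted p = 0.0746, 0.0561 and 0.0838). Without both nuclei libraries numbered 2, AT2G07981 passed (-2.65, adjusted p = 0.0401) and AT2G08986 and AT1G40104 did not (adjusted p = 0.0527 and 0.0626). Without the filter on low counts the changes were nearly the same (-3.40, -3.51 and -2.87), but all 3 passed (adjusted p = 2.6e-22, 1.3e-15 and 2.0e-13). These p-values rest on another estimate of spread and do not reflect how far the 2 eds4 libraries differed. With DESeq2 none passed (adjusted p = 0.343, 0.174 and 0.251). AT2G08986 held 59.5 and 60.2% of the sum in wild type nuclei and 55.1 and 54.0% in eds4 nuclei. AT1G40104 held 23.4 and 23.3% in the wild type and 30.8 and 31.0% in eds4. The sum in eds4 nuclei replicate 2 was only 87 counts, 27 of them at AT1G40104, so its shares are imprecise. How repeat reads were placed is not known, and a difference in the split between genotypes was not tested.

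**Figure D1:**
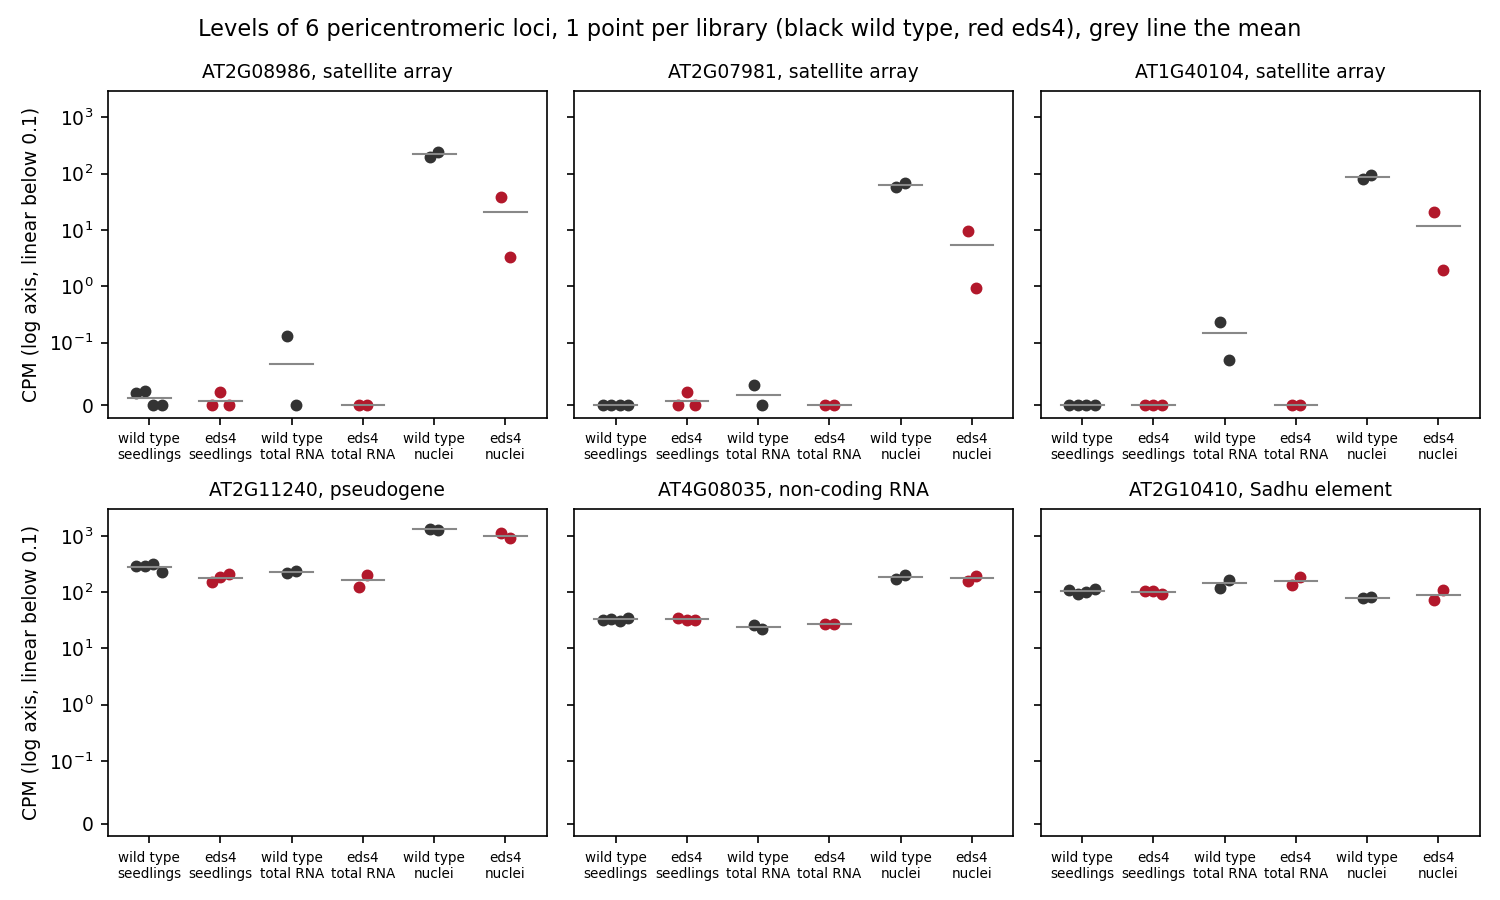
CPM (log axis, linear below 0.1) of 3 satellite arrays, 2 loci higher in nuclei and a Sadhu element in the 6 groups, 1 point per library with the group mean as a grey line. AT2G08986 reaches 200 and 245 CPM in wild type nuclei while its whole-seedling libraries hold at most 4 counts, and AT2G10410 lies lower in nuclei than in total RNA.

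Pseudogenes and transposon genes were detected in larger numbers in nuclei than in whole seedlings, most of them at a few counts. With at least 1 count as detection, 77 and 62 of the 1633 were detected in wild type total RNA, 72 and 53 in eds4 total RNA, 426 and 583 in wild type nuclei and 427 and 103 in eds4 nuclei. Profiling seedlings, although deepest, detected 76 to 95 in the wild type and 83 to 96 in eds4. Both wild type nuclei libraries and eds4 nuclei replicate 1 thus held several times as many of these loci as any whole-seedling library, and eds4 nuclei replicate 2 only slightly more. With every library thinned to 12393243 counts, the depth of the smallest, the share detected was 3.13 and 2.64% in wild type total RNA, 2.95 and 2.67% in eds4 total RNA, 23.7 and 34.8% in wild type nuclei and 23.0 and 6.31% in eds4 nuclei. The ratio of group means was 10.1 in the wild type and 5.22 in eds4. Without replicate 2 of the nuclei it was 8.21 and 8.19, and without eds4 nuclei replicate 1 it was 2.25 in eds4. Groups did not overlap, and the exact two-sided permutation p was 0.333, the smallest that 2 against 2 libraries allow. The genotypes in nuclei differed by 238 loci on average, eds4 lower, and by 11.6 loci when both nuclei libraries numbered 2 were left out, an alternative chosen after the data were seen.

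**Figure D2:**
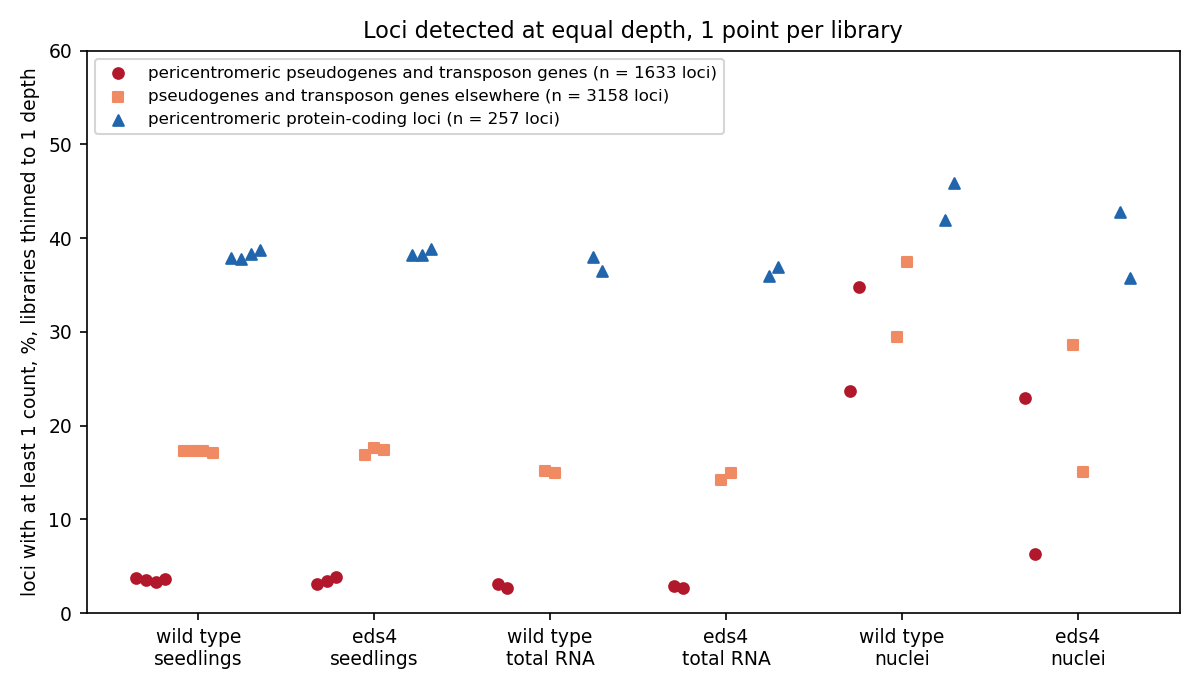
Percent of loci with at least 1 count after thinning each library to the same depth, 1 point per library in the 6 groups, for pericentromeric pseudogenes and transposon genes, those elsewhere, and pericentromeric protein-coding genes. The first set sits between 2.64 and 3.82% in the 11 whole-seedling libraries and between 6.31 and 34.8% in nuclei.

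The loci detected were only partly the same from library to library. Of the 426 in wild type nuclei replicate 1 and the 583 in replicate 2, 237 were shared (55.6% and 40.7%). In eds4 nuclei, 73 were shared, 17.1% of the 427 in replicate 1 and 70.9% of the 103 in replicate 2, and 50 loci were detected in all 4 nuclei libraries. Counts were low: 298 of the 426 (70.0%), 394 of the 583 (67.6%), 321 of the 427 (75.2%) and 78 of the 103 (75.7%) had 1 to 9 counts. At 5 counts or more and equal depth, 11.9 to 15.3 loci remained in the total RNA libraries, 157 and 293 in wild type nuclei and 132 and 40.0 in eds4 nuclei. Over all libraries, 930 loci (57.0%) had a count in at least 1 of the 4 nuclei libraries and 325 (19.9%) in at least 1 of the 11 whole-seedling libraries, which together held 424192359 counts. Of the 1308 loci with 0 counts in all 11, 687 (52.5%) had a count in nuclei and 140 did so in both wild type nuclei libraries. There were 621 with 0 counts in all 15 libraries.

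The ratio of nuclei to total RNA was smaller for pseudogenes and transposon genes outside the windows, whose detected share at equal depth lay between 14.2 and 15.2% in the 4 total RNA libraries and was 29.5 and 37.4% in wild type nuclei and 28.6 and 15.1% in eds4 nuclei. The ratios of means were 2.22 and 1.49, and their difference from the pericentromeric ratios was not tested. High detection in nuclei was not confined to the windows. The 726 pseudogenes and transposon genes about 1.25 Mb from a window's middle, just outside it, were detected at 25.9 and 35.8% in wild type nuclei. In wild type total RNA they were detected at 6.77 and 6.53%. For pericentromeric protein-coding genes the shares lay closer together, at 38.0 and 36.5% in wild type total RNA and 41.9 and 45.9% in wild type nuclei, and in eds4 35.9 and 37.0% against 42.8 and 35.8%. Protein-coding genes elsewhere were detected at 79.7 to 81.0% in total RNA and 74.1 to 79.4% in nuclei.

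Detection in nuclei went with the length of the locus. Of the 404 pseudogenes and transposon genes under 1 kb, 11.6 and 15.3% were detected in wild type nuclei at equal depth, of the 764 between 1 and 3 kb 22.4 and 34.6%, and of the 465 of 3 kb or more 36.4 and 51.9%. In eds4 the values were 11.3 and 3.96%, 21.4 and 5.76%, and 35.8 and 9.25%. In total RNA every length class lay between 1.76 and 3.95%. Whether all counts at these loci in nuclei came from RNA was not tested. Loci with a near-identical copy (at least 95% identity over at least 50% of the length, 497 loci) were detected at 32.4 and 42.0% in wild type nuclei and the 1136 without at 19.9 and 31.6%, so loci without such a copy were also detected more often in nuclei. Reads of the 497 cannot be assigned with certainty. The inner 1 Mb of the windows, with 747 loci, gave 26.1 and 36.0% and the outer 1 Mb, with 886, gave 21.7 and 33.7%. All 5 chromosomes took part, at 21.6 to 26.99% in replicate 1 of the wild type nuclei and 31.9 to 37.6% in replicate 2. None of the members was covered by mitochondrial sequence and 3 were covered by chloroplast sequence.

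**Figure D3:**
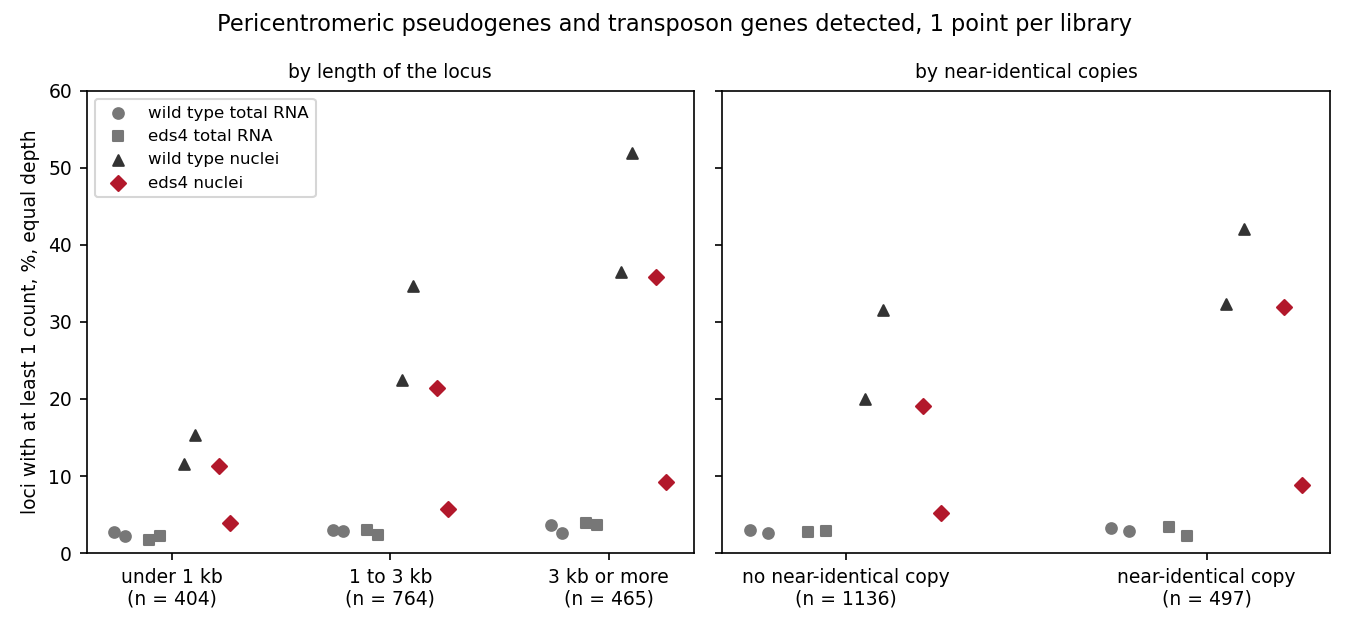
Percent of pericentromeric pseudogenes and transposon genes with at least 1 count at equal depth, by length of the locus (left) and by presence of a near-identical copy (right), 1 point per library of the distribution experiment. Wild type nuclei rise from 11.6 and 15.3% under 1 kb to 36.4 and 51.9% at 3 kb or more, while total RNA stays between 1.76 and 3.95%.

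Summed over the 1633 loci, pseudogenes and transposon genes gave 446 and 512 CPM in wild type total RNA, 337 and 517 in eds4 total RNA, 1755 and 1977 in wild type nuclei and 1422 and 1249 in eds4 nuclei. Much of this came from the highest locus of each library, which was AT2G11240 except in eds4 total RNA replicate 1, where it was AT2G10410. Without the highest locus the sums were 226 and 279, 204 and 312, 419 and 685, and 311 and 337 CPM. The wild type groups then still did not overlap, and the eds4 groups did. All 1937 loci together took 0.865 and 0.801% of the counts of wild type nuclei, 0.783 and 0.788% of eds4 nuclei, 0.697 and 0.702% of wild type total RNA and 0.675 and 0.720% of eds4 total RNA. The groups of nuclei and of total RNA did not overlap, with differences of 0.133 points in the wild type and 0.0884 points in eds4 (exact permutation p = 0.333 each). With organelle, rRNA and insertion loci taken out of the totals the differences were 0.216 and 0.0856 points, and for the inner 1 Mb of the windows 0.0362 and 0.000508 points. With scaling by TMM (trimmed mean of M values) the sum in eds4 was 6955 ± 64.3 CPM in nuclei and 7482 ± 37.1 in total RNA (SD, n = 2), the opposite order, so the direction of that share in eds4 depends on the scaling. In the wild type it was 8150 ± 61.0 against 7542 ± 400.5 CPM.

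For tests locus by locus, 199 of the 1937 loci passed the filter on low counts in the distribution experiment, of 21484 loci in all: 104 pseudogenes and transposon genes, 90 protein-coding genes and 5 non-coding RNAs. A locus near 0 in total RNA could pass only through its nuclei, so the counts of calls describe these loci and support nothing about the rest. TMM scaling sets the bulk of loci to no change, and every nuclear-to-total change is relative to that. In the wild type 46 loci were higher in nuclei and 18 lower, where 15.1% and 15.6% of all loci tested were, and the median log2 change was 2.19 against -0.00 over all loci. Among the 100 loci with an average log2 CPM of at least 0 the median was -0.01, against -0.05 over all loci of that level. In eds4 24 were higher and 13 lower, where 15.6% and 14.0% of all loci were (29.6% in either direction). Pseudogenes and transposon genes accounted for 30 of the rises and 0 of the falls in the wild type, and for 9 and 0 in eds4. That is 28.8% higher in the wild type and 8.65% in eds4. Of the 469 loci of this class tested outside the windows, 141 (30.1%) were higher and 7 lower in the wild type, and 106 (22.6%) and 8 in eds4. Protein-coding genes were split, with 14 higher and 17 lower in the wild type and 14 higher and 13 lower in eds4. Among non-coding RNAs 2 were higher and 1 lower in the wild type, and 1 was higher in eds4. There were 29 loci called in both genotypes, 45.3% of those called in the wild type and 78.4% of those called in eds4. Over all loci tested 30.6% were called in the wild type and 29.6% in eds4, in the same fit. The share of all loci called in both was not computed, so the overlap cannot be read as a trait of these loci.

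The counts of 46 and 24 rises and of 18 and 13 falls were smaller when a total RNA library of the same genotype was left out, whichever it was. Each such fit has 1 library in a group and less information on spread. It therefore cannot tell whether the counts lean on a single library. The fit without both nuclei libraries numbered 2 has 1 library in each nuclei group, and its low-count filter was set anew. It need not have tested the same 199 loci, so its number of calls cannot be compared with 46 and 24. Of the 30 pseudogene rises in the wild type, 23 had 0 counts in wild type total RNA, 19 had a near-identical copy and 24 had an average log2 CPM below 0. Among the 100 loci with an average log2 CPM of at least 0, 21 were higher and 18 lower in the wild type, and 21 and 13 in eds4, where 16.3% and 17.0%, and 17.2% and 15.2%, of all loci of that level were. At that level 15 pseudogenes were tested and 6 were higher in each genotype.

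**Figure D4:**
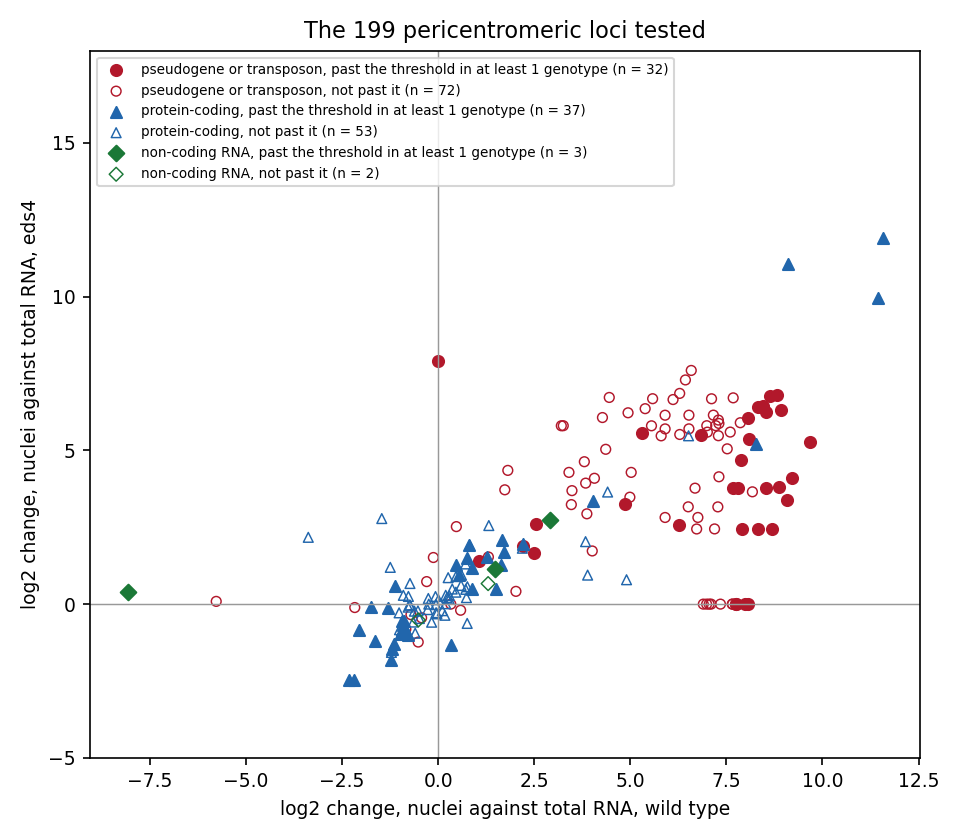
Log2 change from total RNA to nuclei in the wild type (horizontal) and in eds4 (vertical) of the 199 loci tested, by class, filled where the adjusted p was under 0.05 in at least 1 genotype. Of these, 126 lie above 0 in both genotypes and 0 were called in opposite directions. A locus near 0 in total RNA could pass the filter only through its nuclei, so its place above 0 follows from the filter. The 126 are therefore no measure of likeness between genotypes. The 12 loci with 0 counts in every eds4 library of the experiment lie at 0 on the vertical axis.

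The highest pseudogene by level was AT2G11240 (chr2:4477686-4483748, minus strand, 6063 bases). It had 220 and 233 CPM in wild type total RNA, 125 and 205 in eds4 total RNA, 1335 and 1292 in wild type nuclei and 1111 and 913 in eds4 nuclei. Nuclei were far above total RNA in every library, with log2 changes of 2.53 ± 0.32 in the wild type (adjusted p = 0.000537) and 2.61 ± 0.32 in eds4 (adjusted p = 0.000496). Per kb of locus its mean in nuclei was 217 CPM (wild type) and 167 CPM (eds4), among the 8 highest of all 1937 loci there. AT4G08035, a non-coding RNA on chromosome 4 (chr4:4866554-4868343), had 26.6 and 22.2 CPM in wild type total RNA, 27.4 and 26.7 in eds4 total RNA, 170 and 200 in wild type nuclei and 160 and 197 in eds4 nuclei. Its rise of 2.92 ± 0.25 and 2.72 ± 0.25 (adjusted p = 0.000351 and 0.000358) was thus alike in both genotypes, and its libraries were close together within each group.

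AT4G05631, an uncharacterized protein-coding locus (chr4:2990006-2992618), had 3.58 and 2.79 CPM in wild type total RNA, 2.29 and 2.32 in eds4 total RNA, 43.1 and 60.5 in wild type nuclei and 28.2 and 18.4 in eds4 nuclei. The log2 changes were 4.02 ± 0.35 (adjusted p = 0.000351) and 3.34 ± 0.34 (adjusted p = 0.000358). The pseudogene AT3G42052 (chr3:14235495-14242638), named after its values were seen, had 16.7 and 16.4 CPM and 15.5 and 21.6 CPM in total RNA and 69.3 and 83.9 CPM and 53.9 and 83.5 CPM in nuclei, wild type first. It rose by 2.21 ± 0.29 (adjusted p = 0.000683) and 1.89 ± 0.29 (adjusted p = 0.00127).

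Other pseudogenes were near 0 outside nuclei. AT5G29975 (chr5:11323981-11329884) had 54 and 96 counts in wild type nuclei, 42 and 2 in eds4 nuclei, 0 in wild type total RNA, 1 and 0 in eds4 total RNA and at most 2 in a profiling library. Wild type nuclei were at least 81.6-fold higher than total RNA (adjusted p = 0.00713), and in eds4 the ratio of rates was 57.4 with a counting interval of 9.78 to 2317 (adjusted p = 0.0428, and 0.34 without eds4 nuclei replicate 1). AT3G33072 (chr3:13631493-13634029) had 44 and 103 counts in wild type nuclei, 11 and 0 in eds4 nuclei, 2 and 0 in total RNA of the wild type and none in that of eds4. It was called in the wild type (ratio 120, counting interval 32.6 to 1000.3, adjusted p = 0.0217) and not in eds4 (adjusted p = 0.112), and leaving out a wild type total RNA library or nuclei replicate 2 ended the call. AT4G06477 (chr4:3060975-3065294) had 119 and 198 counts in wild type nuclei, 162 and 28 in eds4 nuclei, 16 and 3 in wild type total RNA and 16 and 7 in eds4 total RNA. It rose by 4.86 ± 0.95 in the wild type (adjusted p = 0.00432) and by 3.26 ± 0.89 in eds4 (adjusted p = 0.0211, and 0.11 without eds4 nuclei replicate 1).

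Not every repeat-derived locus was higher in nuclei. Sadhu elements are non-coding retrotransposons, and AT2G10410 (SADHU1-1, chr2:4005995-4007044) was well expressed. It had 3668 and 4623 counts in wild type total RNA, 3798 and 4063 in eds4 total RNA, 1598 and 1242 in wild type nuclei and 1792 and 1511 in eds4 nuclei. In profiling seedlings it had 3790 to 5380 counts in the wild type and 3890 to 4967 in eds4. Its log2 change to nuclei was -0.84 ± 0.29 in the wild type (adjusted p = 0.0518) and -0.82 ± 0.29 in eds4 (adjusted p = 0.0589), which missed the threshold although groups did not overlap. SADHU4-1 (AT5G28913) had 176 to 187 counts in the 4 total RNA libraries and 51 to 139 in nuclei (adjusted p = 0.211 and 0.557). The third, AT3G31442, had at most 9 counts in a library. All Sadhu and other transposon loci named here were chosen after their values were seen. Of the 14 loci whose text names a transposon, these were the only ones but AT2G11120 (8 and 7 counts in wild type nuclei, 0 elsewhere) and AT5G28917 (at most 6) to exceed 4 counts in any library, and 6 were at 0 in all 15 libraries.

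Protein-coding genes between the repeats moved in both directions. YY1 (AT4G06634, chr4:3764289-3766578), a C2H2 zinc finger transcription factor named after its values were seen, had 14.9 and 15.3 CPM in wild type total RNA, 14.4 and 19.3 in eds4 total RNA, 70.5 and 69.6 in wild type nuclei and 56.5 and 75.5 in eds4 nuclei. It rose by 2.22 ± 0.26 (adjusted p = 0.000441) and 1.97 ± 0.26 (adjusted p = 0.000622). The bZIP transcription factor gene BZO2H3 (AT5G28770) had 2559 and 3630 counts in wild type total RNA and 6277 and 5437 in wild type nuclei, from 3964 and 2218 to 6916 and 4264 in eds4. It rose by 1.63 ± 0.30 (adjusted p = 0.00295) and 1.28 ± 0.29 (adjusted p = 0.009; 0.082 without eds4 total RNA replicate 2). AT3G32940, which encodes an RNA-binding KH-domain protein and was also chosen after its values were seen, rose by 1.72 ± 0.35 (adjusted p = 0.00509) and 1.70 ± 0.35 (adjusted p = 0.00522). AT1G42470, of the Patched family of membrane proteins, rose by 1.66 ± 0.31 (adjusted p = 0.00351) and 2.08 ± 0.32 (adjusted p = 0.00124).

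Genes for chloroplast proteins were among those lower in nuclei. RPS1 (AT5G30510, chr5:11619026-11621298), which encodes ribosomal protein S1 of the chloroplast, had 517 and 531 CPM in wild type total RNA, 615 and 446 in eds4 total RNA, 115 and 113 in wild type nuclei and 80.4 and 110 in eds4 nuclei. It fell by 2.20 ± 0.28 on the log2 scale in the wild type (adjusted p = 0.000623) and by 2.48 ± 0.29 in eds4 (adjusted p = 0.000434). AT5G28750, a component of the twin-arginine protein translocase of thylakoids, had 89.96 and 111 CPM and 103 and 102 CPM in total RNA and 19.1 and 21.2 CPM and 23.2 and 13.9 CPM in nuclei, wild type first. It fell by 2.32 ± 0.29 (adjusted p = 0.000528) and by 2.46 ± 0.29 (adjusted p = 0.00045). CUE1 (AT5G33320), the plastid phosphoenolpyruvate/phosphate translocator, fell by 1.64 ± 0.31 (adjusted p = 0.00397) and by 1.21 ± 0.31 (adjusted p = 0.0159). The cytosolic ribosomal protein gene AT1G41880 (L35Ae) fell by 1.199 ± 0.25 (adjusted p = 0.00645) and by 1.46 ± 0.26 (adjusted p = 0.0024). AT1G36980 fell by 1.22 ± 0.24 (adjusted p = 0.00495) and by 1.81 ± 0.25 (adjusted p = 0.000779).

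NIA2 (AT1G37130), a nitrate reductase that assimilates nitrate in the cytosol, had 42779 and 46756 counts in wild type total RNA, 37946 and 33178 in eds4 total RNA, 18572 and 11396 in wild type nuclei and 25851 and 12338 in eds4 nuclei. It fell by 0.90 ± 0.28 in the wild type (adjusted p = 0.0345), a call that leaving out any of the 4 wild type libraries of the experiment ended (adjusted p 0.066 to 0.19). In eds4 the change was -0.56 (adjusted p = 0.158). AT5G28830, an EF-hand protein, was called in the wild type (-2.05 ± 0.56, adjusted p = 0.021) and not in eds4 (-0.84, adjusted p = 0.269). AT5G33300, related to kinesins, was likewise called in the wild type (-1.74 ± 0.49, adjusted p = 0.0242) and not in eds4 (-0.11, adjusted p = 0.886). The difference between genotypes passed the threshold for neither. Per kb, the highest mean levels in total RNA were those of AT2G10940 (788 CPM and, in eds4, 796), NIA2 (491 and 454) and XTH4 (AT2G06850, a cell wall xyloglucan endotransglucosylase; 472 and 564). In nuclei they were those of XTH4 (797 and 365), AT2G10940 (435 and 449) and NIA2 (264 and 308).

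AT1G36992, a non-coding RNA that lies antisense within AT1G36990, had 55 and 31 counts in wild type total RNA, 38 and 12 in eds4 total RNA, 0 and 0 in wild type nuclei and 54 and 4 in eds4 nuclei. In profiling seedlings it had 102 to 174 counts. Wild type nuclei were at least 17.6-fold lower than total RNA (adjusted p = 0.0198), and leaving out any wild type library of the experiment ended the call (adjusted p 0.053 to 0.095). AT1G36990 itself had 508 and 206 counts in wild type nuclei. The kit does not mark strand and the strand setting of the counting is not known, so how reads were divided between the overlapping loci is uncertain.

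The question of the mutant was whether the loss of a pore protein changed these levels or their nuclear share. No member's nuclear-to-total change differed between genotypes in edgeR: 0 of 199 passed, with 12 at an unadjusted p under 0.05, and 0.0% of all loci tested passed. DESeq2 called 1, AT3G32980, a peroxidase gene. It had 65.5 and 81.8 CPM in wild type total RNA, 75.5 and 97.0 in eds4 total RNA, 96.2 and 88.8 in wild type nuclei and 38.4 and 30.1 in eds4 nuclei. Its log2 change to nuclei was 0.33 in the wild type (adjusted p = 0.344) and -1.33 ± 0.25 in eds4 (adjusted p = 0.00349), a difference of -1.66 ± 0.35 with an adjusted p of 0.75 in edgeR, 0.018 in DESeq2 and 0.017 without the filter on low counts. XTH4 (1135 and 799 CPM in wild type nuclei, 407 and 479 in eds4 nuclei) also missed, at -1.38 ± 0.42 (adjusted p = 0.774).

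In total RNA 0 of 199 loci differed between genotypes (3 at an unadjusted p under 0.05, 0 by DESeq2; 0.00465% of all loci tested were called). In nuclei 1 did, of 36 at an unadjusted p under 0.05, where 0.363% of all loci were called, 0.312% higher and 0.0512% lower. DESeq2 called 7 and a fit without the filter on low counts called 12. The share of all loci called in those fits is not given here, so these counts cannot be read as a trait of these loci. The locus that edgeR called was RAP2.9 (AT4G06746, chr4:4073962-4074545), an AP2/ERF transcription factor of the DREB group. Its level was 13.8 and 15.02 CPM in wild type nuclei and 62.8 and 160 in eds4 nuclei. In total RNA it was 4.76 and 11.8 CPM in the wild type and 30.1 and 29.0 in eds4, but profiling seedlings held 1.305, 2.89, 3.51 and 3.66 CPM in the wild type and 2.26, 2.20 and 4.15 in eds4. The genotypes did not overlap in nuclei or total RNA and overlapped in profiling seedlings. The log2 change was 2.95 ± 0.50 in nuclei (adjusted p = 0.0456), 1.84 ± 0.48 in total RNA (adjusted p = 1) and 0.02 ± 0.37 in profiling seedlings (adjusted p = 0.988). The call in nuclei lay at the threshold: the adjusted p was 0.06 with DESeq2 size factors, 0.056 without organelle, rRNA and insertion loci, 0.11 in a fit of the 4 nuclei libraries, 0.0811 without both nuclei libraries numbered 2, and 0.056 to 0.14 without wild type nuclei replicate 1 or 2, eds4 nuclei replicate 2 or either eds4 total RNA library.

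In profiling seedlings 110 loci passed the filter, of 22202, and 3 were lower in eds4, 0 higher, where 0.581% and 0.757% of all loci were (18 members at an unadjusted p under 0.05). SKS6 (AT1G41830), of a family related to multicopper oxidases, had 113, 112, 114 and 109 CPM in the wild type and 77.8, 87.9 and 83.8 in eds4, and fell by 0.43 ± 0.07 on the log2 scale (adjusted p = 0.027). CSLC12 (AT4G07960), a cellulose synthase-like gene, had 129, 91, 103 and 115 counts against 49, 32 and 55, and fell by 1.31 ± 0.25 (adjusted p = 0.0499). AT5G28919 had 2134, 1758, 1567 and 1662 counts against 1457, 1544 and 1340 and fell by 0.34 ± 0.06 (adjusted p = 0.0429), but it overlaps AT5G28920 with identical sequence and their reads cannot be told apart. Leaving out any of the 7 libraries but eds4 replicate 3 ended all 3 calls, and without eds4 replicate 3 the count was 4, with AT5G28919 no longer among them. None of the 3 was called between genotypes in the distribution experiment.

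AT2G11240 was lower in eds4 in every whole-seedling comparison of means. Profiling seedlings held 295, 290, 310 and 230 CPM in the wild type and 150, 182 and 208 in eds4, and the groups did not overlap. The log2 change of -0.65 ± 0.14 missed the threshold in edgeR (adjusted p = 0.0775). Leaving out eds4 replicate 3 it passed (-0.77, adjusted p = 0.04), and DESeq2 called it (adjusted p = 0.00048). In nuclei the change was -0.38 ± 0.30 (adjusted p = 0.616). Through this locus the summed level of the pericentromeric pseudogenes and transposon genes in profiling seedlings was 509 ± 40.0 CPM in the wild type and 389 ± 32.3 in eds4 (SD, n = 4 and 3), groups that did not overlap (exact permutation p = 0.0571, the smallest the design allows). Without it the sums were 202 to 242 CPM in the wild type and 206 to 213 in eds4. The number of these loci detected at equal depth in profiling seedlings overlapped between genotypes, at 3.36 to 3.76% in the wild type and 3.14 to 3.82% in eds4.

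**Figure D5:**
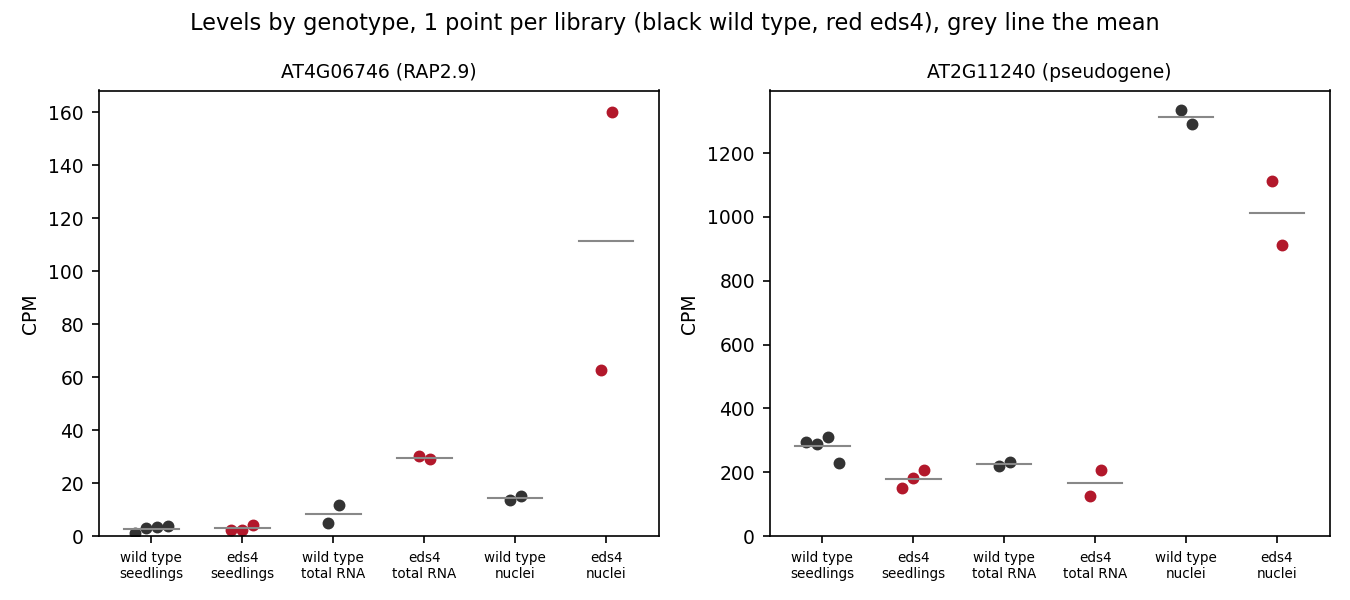
CPM of RAP2.9 (left) and AT2G11240 (right) in the 6 groups, 1 point per library with the group mean as a grey line. RAP2.9 reaches 62.8 and 160 CPM in eds4 nuclei against 13.8 and 15.02 in wild type nuclei, and AT2G11240 is lower in the 3 eds4 profiling libraries than in the 4 of the wild type.

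Genes that set, keep or remove silencing marks were followed as a list of 39, all of them measured, with the DNA demethylase ROS1 among them. Between genotypes edgeR called 0 of 39 in profiling seedlings, total RNA or nuclei (7, 2 and 5 at an unadjusted p under 0.05), DESeq2 called 1, the histone H2A.W gene HTA12 in nuclei, and the median log2 changes were -0.04, -0.08 and 0.17. From total RNA to nuclei 2 rose and 8 fell in the wild type, and 2 rose and 5 fell in eds4. Over all loci tested 15.1% were higher and 15.6% lower in the wild type, and 15.6% and 14.0% in eds4. SHH1, which brings RNA polymerase IV to its targets, rose by 1.81 ± 0.29 (adjusted p = 0.0017) in the wild type and by 2.07 in eds4 (adjusted p = 0.000943). KTF1 was the other to rise, by 1.35 (adjusted p = 0.00803) and by 1.38 (adjusted p = 0.00709). HOG1 fell by 1.52 (adjusted p = 0.00548) and by 2.22 (adjusted p = 0.000962). NRPD2, a subunit shared by RNA polymerases IV and V, fell by 1.56 (adjusted p = 0.00195) and by 1.55. DRD1, a chromatin remodeller of the RNA polymerase V pathway, fell by 2.38 in the wild type (adjusted p = 0.00375) and by 1.59 in eds4 (adjusted p = 0.0214).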

How the data were processed

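RNA-seq counts of 15 libraries were used, in 3 tables that list the same 33602 loci. The deposited values are raw read counts per locus: they are whole and sum differently in each library. TopHat2 2.1.1, SAMtools 1.3 and the TAIR10 build are named in the submitters' processing notes. How reads were counted (program, strand setting, reads that match several places) and by which annotation release is not given in the sources used here. Reads of repeats therefore cannot be placed with certainty. Per the labels' protocols, polyadenylated RNA was selected and primed with random hexamers.

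Loci were classed by the RefSeq annotation of TAIR10.1, matched by locus tag (1904 of 1937). Of 32835 matched nuclear loci, 32834 overlapped their interval there. Near-identical copies were found with blastn 2.17.0. The members, the lists and the tests were chosen with earlier results of these data known. Tests used edgeR 4.0.16 in R 4.3.3, with its quasi-likelihood F test, on the counts of all loci after filterByExpr and TMM scaling, with Benjamini-Hochberg adjustment over all loci and a threshold of 0.05. The 8 distribution libraries were fitted together and the 7 profiling libraries alone. Standard errors were derived from each log2 change and the F value of its test. Shares and numbers detected were compared by exact two-sided permutation over libraries. DESeq2 1.42.0, other scalings, other filters, a 1 Mb window and leaving out each library were alternatives. The fits were tested on simulated counts with 100 loci changed 4-fold and 100 changed 16-fold. For nuclei against total RNA in the wild type 59 and 84 were recovered, with 8 false calls among 21484 loci. For profiling seedlings 96 and 99 were recovered, with 16 false calls among 22202. The distribution experiment can thus miss changes of this size. Counts of replicates differed beyond sampling noise, with a chi-square of 11.4 to 122 per degree of freedom.

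Members were named by rule: the 6 largest rises and falls in each genotype among called loci whose groups were separate and whose average log2 CPM was 0 or more, the called or nearest missed in the other comparisons, the 8 highest levels per kb in total RNA and in nuclei, the member with most counts in nuclei on each chromosome, near-identical copies of these, and up to 4 silencing genes per comparison. Those named outside it are said to have been chosen after their values were seen.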

Additional observations from a re-analysis of the deposited data

Results flagged for a closer look

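Among 36 sets of 4 wild type seedling values of the named loci, 2 held a library far from the other 3, where chance gives about 1 in 20. AT3G33530, a WD-40 repeat protein gene, had 68.3 CPM in replicate 4 against 78.2, 80.2 and 79.1 CPM in the others. AT5G28750, the translocase component, had 117 CPM in replicate 3 against 128, 126 and 127 CPM.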

How the results depend on the processing

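Of 62 results followed for named loci, 51 were called. Of their 917 values under the alternatives, 803 kept direction and side of the threshold, 15 newly passed, 99 no longer passed and 0 reversed. The call was lost somewhere for 21 results. For 9 of them this occurred in a fit that kept every library of the groups compared, fits of 4 libraries included. Nuclei with at most 21786898 counts limit what low loci can show. The 46 loci higher in wild type nuclei became 76 in a fit of the 4 libraries of the genotype alone, 118 without both nuclei libraries numbered 2 and 27 in a 1 Mb window, which holds fewer loci. The 18 lower became 4 in that window. The fit without both nuclei libraries numbered 2 has 1 library in each nuclei group, and its low-count filter was set anew. It need not have tested the same loci, so its counts in either genotype cannot be compared with those of the main fit. In eds4 the 24 higher became 71 without the libraries numbered 2 and 12 in the window, and the 13 lower became 20 with DESeq2, 20 without the libraries numbered 2 and 5 in the window. The changed ratios went from 0 to 1 without the low-count filter and 1 with DESeq2. Genotype calls in total RNA went from 0 to 1 without the filter. Those in nuclei went from 1 to 0 with DESeq2 size factors, 12 without the filter, 7 with DESeq2, 0 without organelle, rRNA and insertion loci and 0 with the 4 nuclei libraries alone. Those in profiling seedlings went from 3 to 7 with DESeq2, 5 with a term for replicate sets 1 and 2 against 3 and 4, a term chosen after the data were seen, and 0 in the window. The causes were not tested. The share of all loci called under each alternative is not given here. Whether the counts of these loci moved more than those of other loci is therefore not known. Leaving out each library gave ranges of 13 to 50 and 5 to 23 loci higher and lower in wild type nuclei, 12 to 25 and 5 to 16 in eds4, 0 to 0 for the ratio and for total RNA, 0 to 5 for nuclei and 0 to 4 for profiling seedlings.

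Same-numbered libraries were not treated as pairs in the main fits. Their deviations correlated at 0.499, -0.0359 and 0.519 for replicates 1, 2 and 3 of profiling. Between the groups of the distribution experiment the correlations were -0.0044 to 0.386. A pairing in profiling is thus uncertain. With the replicate block the counts were 36 higher and 24 lower in the wild type, 20 and 17 in eds4, 0 for the ratio, 0 in total RNA, 4 in nuclei, with RAP2.9 and AT2G07981 (adjusted p = 0.0497 for the latter) among them, and 2 in profiling seedlings, of which 1 was among the 3 called without it.

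The share of counts on members differed between genotypes in total RNA by -0.00214 points, and reversed to 0.00503 without organelle, rRNA and insertion loci, 0.00716 in the 1 Mb window, 0.000249 without loci that overlap another or have a copy, and 0.00743 without the largest member. In profiling seedlings it was -0.0255 and 0.00655 in the window. Members detected differed there by -0.996 and 1.97 in the window, and in nuclei by -249 and by -9.32 without the libraries numbered 2. Pseudogenes and transposon genes detected differed by -1.30 in total RNA and 0.858 at 5 counts, by -238 in nuclei and -11.6 without the libraries numbered 2, and by -1.70 in profiling seedlings, 1.16 in the window and 0.998 at 5 counts. With each library left out in turn, the share moved between 0.102 and 0.165 points (nuclei against total RNA, wild type), 0.0658 and 0.111 (eds4), -0.0790 and -0.0152 (genotype, nuclei), -0.0248 and 0.0205 (genotype, total RNA) and -0.0798 and 0.00286 (genotype, profiling). In the same order, members detected moved between 353 and 541, 56.5 and 348, -395 and -103, -10.6 and 1.90, and -4.94 and 2.17. Pseudogenes and transposon genes detected moved between 340.0 and 520.5, 57.1 and 329.8, -374 and -102, -5.32 and 2.72, and -4.71 and 0.852.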
